A study of Mus musculus with 12 samples.

Results

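The 51 genes described here are interferon-stimulated genes, whose transcription is switched on by interferons, and their RNA was measured in mouse CD8 T cells with and without added Batf3. A gene entered when its symbol in the deposited read count table was on a list of 51 names, which was chosen with earlier results of these data known. All 51 were found among the 55335 genes of that table, and all 51 were among the 15702 genes that passed the filter on low counts. They comprised 3 IFIT, 5 OAS, 3 GBP, 3 immunity-related GTPase (IRG), 2 IFI200 and 4 Schlafen genes. The other members were 4 transcription factors, 6 nucleic acid sensors, 3 genes of the ISG15 system, 3 of the PARP9-DTX3L axis, 2 TRIM30 genes and 13 further effectors.

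The cells came from the spleen of OT-I mice on a C57BL/6 background, whose CD8 T cells carry a transgenic receptor for an ovalbumin peptide. They were transduced with an empty (control) retroviral vector or with one expressing Batf3, a transcription factor of the AP-1 family, and sorted for transduction, so every group had been through transduction and sorting. After sorting, cells of either vector spent 6 h in medium with 100 ng/ml IL-15 (the non-stimulated cultures) or in medium with 1 µg/ml of antibodies against CD3 and CD28 (the stimulated cultures). The labels name IL-15 for the non-stimulated cultures only. Each of the 4 groups (control non-stimulated, Batf3 non-stimulated, control stimulated, Batf3 stimulated) had 3 libraries that the series calls technical replicates, and no source used here gives the number of mice or their age. The SD, SE and p-values below therefore cover the spread between these libraries and not that between mice or transductions. Levels are counts of reads put on a common library size (CPM) in the 3 libraries of a group, in the order of their replicate numbers, and changes are log2 changes ± SE from the quasi-likelihood test of edgeR, with p-values adjusted by Benjamini-Hochberg over all tested genes.

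Type I and type II interferons signal through separate receptors. Type I interferons such as interferon-β bind Ifnar1 and Ifnar2 and activate, through Jak1 and Tyk2, a transcription factor complex that holds Stat2 and Irf9 and binds the interferon-stimulated response element (ISRE) in promoters. Interferon-γ, a main product of activated CD8 T cells, binds Ifngr1 and Ifngr2 and acts through the gamma-activated site (GAS) in promoters. Many IFIT, OAS and Mx genes answer mainly to type I interferon, while GBP and IRG genes answer strongly to interferon-γ. Batf3 binds AP-1 sites as a dimer with Jun proteins, and with Irf4 or Irf8 it binds composite AP-1 and IRF elements.

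The promoters below are shown so that the ISRE cores of the families, and the absence of a match in that of Irf7, can be seen. For each of the 5 families compared, the member with the largest fall in Batf3 non-stimulated cells was taken, and Irf7 was added. Oas2 had the largest OAS fall but no promoter in the table, and Oas1a stands in its place. Each sequence runs 5′ to 3′ on the gene's strand from 250 bases before to 50 bases after the start of transcription, from RefSeq (GRCm38.p6). The Slfn5 window lies inside the span given for that gene below, which begins further upstream in GENCODE M21. Capitals mark every match to the ISRE core GAAANNGAA on either strand, so that a match on the opposite strand shows as its reverse complement.

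Ifit3 (chr19:34583279-34583578, plus strand): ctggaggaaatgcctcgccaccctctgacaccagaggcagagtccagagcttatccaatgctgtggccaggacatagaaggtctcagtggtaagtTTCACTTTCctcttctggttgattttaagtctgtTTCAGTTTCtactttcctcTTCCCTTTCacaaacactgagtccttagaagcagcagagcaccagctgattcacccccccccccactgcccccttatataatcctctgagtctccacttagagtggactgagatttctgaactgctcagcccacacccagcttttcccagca
Oas1a (chr5:120907476-120907775, minus strand): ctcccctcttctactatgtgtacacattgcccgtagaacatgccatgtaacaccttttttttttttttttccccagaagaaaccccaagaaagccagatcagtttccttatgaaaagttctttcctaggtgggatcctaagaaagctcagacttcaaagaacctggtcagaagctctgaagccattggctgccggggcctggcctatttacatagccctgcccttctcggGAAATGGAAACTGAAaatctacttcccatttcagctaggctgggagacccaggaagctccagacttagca
Gbp7 (chr3:142530086-142530385, plus strand): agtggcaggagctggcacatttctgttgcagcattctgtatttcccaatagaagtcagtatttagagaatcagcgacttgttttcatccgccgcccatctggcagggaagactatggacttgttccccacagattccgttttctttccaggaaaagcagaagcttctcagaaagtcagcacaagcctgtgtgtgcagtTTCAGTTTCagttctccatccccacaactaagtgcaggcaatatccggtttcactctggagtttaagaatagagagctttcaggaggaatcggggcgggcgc
Ifi213 (chr1:173599223-173599522, minus strand): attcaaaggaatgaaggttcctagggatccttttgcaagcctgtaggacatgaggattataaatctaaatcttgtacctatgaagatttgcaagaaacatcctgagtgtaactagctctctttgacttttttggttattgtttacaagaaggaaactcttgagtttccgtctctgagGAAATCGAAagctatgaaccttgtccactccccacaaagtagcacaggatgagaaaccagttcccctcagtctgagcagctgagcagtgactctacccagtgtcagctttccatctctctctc
Slfn5 (chr11:82951852-82952151, plus strand): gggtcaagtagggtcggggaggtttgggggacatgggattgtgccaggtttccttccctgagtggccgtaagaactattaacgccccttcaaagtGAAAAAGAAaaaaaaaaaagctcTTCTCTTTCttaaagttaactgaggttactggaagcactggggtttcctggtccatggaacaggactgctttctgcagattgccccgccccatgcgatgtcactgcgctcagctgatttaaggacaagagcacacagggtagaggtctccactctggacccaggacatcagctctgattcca
Irf7 (chr7:141266375-141266674, minus strand): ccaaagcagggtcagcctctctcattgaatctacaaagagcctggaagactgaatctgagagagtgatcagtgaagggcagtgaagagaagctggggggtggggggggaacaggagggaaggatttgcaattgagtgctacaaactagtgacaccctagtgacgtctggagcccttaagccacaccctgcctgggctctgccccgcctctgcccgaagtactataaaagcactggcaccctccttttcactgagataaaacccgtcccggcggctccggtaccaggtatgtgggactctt

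The table held promoters for 42 of the 51 members. The ISRE core was found in the promoters of 27 of those 42 (64.3%), against 8.82% of the 10049 tested genes with a promoter in the table and 9.76% of all 27025 genes in it. Ifit3 had 3 matches, starting 155, 121 and 102 bases before the transcription start. Slfn5 had 2 matches and Oas1a had 2 that overlap each other. Gbp7 and Ifi213 had 1 each. Irf7 had no match in this window. The GAS core TTCNNNGAA was in the promoters of 10 members (23.8%, against 8.39% of tested genes). The pattern TGANTCA was in those of 11 (26.2%, against 6.32%): Ifit3, Oas3, Gbp2, Irgm1, Ifi203, Trim30a, Trim30d, Ifi35, Ifitm3, Rsad2 and Xaf1. This pattern is wider than the AP-1 consensus, which has G or C in the middle. The match of Ifit3 is TGATTCA, so these are not counts of consensus AP-1 sites. An ISRE and a GAS match overlapped in 2 of the 54 member promoters, and neither overlapped a TGANTCA match. Only shared bases were counted, and composite AP-1 and IRF elements were not searched for. Members with an ISRE core had a median Batf3 change of -0.41 in non-stimulated cells (27 members), and those without one -0.38 (15 members). In stimulated cells these medians were -0.39 and -0.34.

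Total counts lay between 14211564 and 14468231 per library, so a count of 3 stood for 0.191 to 0.229 CPM. The median within-group SD of log2 CPM was 0.052 over the members and 0.114 over all tested genes. Batf3 itself stood at 5.84 to 7.44 CPM in control and 468 to 475 CPM in Batf3 non-stimulated libraries, and at 17.7 to 19.1 and 414 to 435 CPM in the stimulated ones. Counts do not separate vector RNA from that of the cells' own gene. The 9 CD8 T cell markers were present in every group, the lowest mean being that of Cd5 in control non-stimulated cells (35.3 CPM). Their summed level was 2848 to 2886 CPM in control and 2749.8 to 2758 CPM in Batf3 non-stimulated libraries, and 1878 to 1882 and 2261 to 2324 CPM in the stimulated ones. Siglech (plasmacytoid dendritic cells), Cd209a (conventional dendritic cells) and the macrophage markers Lyz2 and C1qb had no counts in any library. Nor had Ms4a1 (B cells) or Ncr1 and Klra8 (NK cells). Other markers of these lists passed the filter on low counts: 3 of 8 plasmacytoid and 6 of 10 conventional dendritic cell markers. Also passing were 6 of 12 macrophage and monocyte, 4 of 7 B cell and 3 of 6 NK cell markers. The summed level of 12 macrophage and monocyte markers was 1293 to 1317 CPM in control and 999 to 1030 CPM in Batf3 non-stimulated libraries, and nearly all of it was Ly6c2 and Ccr2, which activated CD8 T cells also express. The 6 NK cell markers summed to 327 to 339 and 153 to 157 CPM in those groups, nearly all of it Eomes, which CD8 T cells express too. In control and Batf3 stimulated libraries these sums were 176 to 186 and 180 to 196 CPM for macrophages and 45.5 to 47.6 and 39.7 to 42.04 CPM for NK cells. The 8 plasmacytoid dendritic cell markers summed to 64.2 to 64.7 CPM in control and 67.6 to 69.998 CPM in Batf3 non-stimulated libraries, and to 135 to 148 and 141 to 146 CPM in the stimulated ones. The 10 conventional dendritic cell markers summed to 43.9 to 44.97 and 44.4 to 47.04 CPM in the non-stimulated and to 107 to 119.7 and 115 to 122 CPM in the stimulated libraries. The 7 B cell markers summed to at most 7.56 CPM in any library. In these bulk libraries, fewer cells that express a gene and less RNA of it per cell cannot be told apart.

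With Batf3, RNA of most of the members was lower in both cultures. In non-stimulated cells 45 of the 51 members fell and 2 rose, where 23.0% of all tested genes were called lower and 16.3% higher. In stimulated cells 38 fell and 5 rose, where 14.6% were called lower and 14.8% higher. The median change over the 51 members was -0.40 in non-stimulated and -0.39 in stimulated cells, against -0.02 and 0.00 over all tested genes. The falls were mostly smaller than 2-fold: 4 members fell at least 2-fold in non-stimulated cells (background 0.866%) and 6 in stimulated cells (background 0.834%). In 45 members all 3 Batf3 non-stimulated libraries lay below all 3 controls (background 27.1%) and in 3 members above them (20.7%). In stimulated cells they lay below in 38 members (background 19.9%) and above in 7 (19.9%). With library sizes alone in place of TMM scaling, 42 members fell and 4 rose in non-stimulated cells, and 38 fell and 7 rose in stimulated cells. Under that scaling the share of all called genes that were higher went from 41.5% to 60.1% in non-stimulated and from 50.3% to 65.6% in stimulated cells.

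Other measures moved with the vector as well. In non-stimulated cells mitochondrial genes took 1.89% to 2.03% of counts in control and 2.19% to 2.31% in Batf3 libraries, and genes with at least 1 count numbered 21860 to 21966 and 23232 to 23387. In stimulated cells the mitochondrial share was 1.96% to 2.03% and 1.64% to 1.96%, and 22327 to 22423 and 22883 to 23113 genes had a count. Of the 9 CD8 T cell markers, 4 fell and 1 rose with Batf3 in non-stimulated cells (background 23.0% and 16.3%). In stimulated cells 8 rose and none fell (14.8% and 14.6%), and Cd2 rose most (1.35 ± 0.035, adjusted p = 5.63e-40). Non-stimulated cells had 1 plasmacytoid dendritic, 2 conventional dendritic, 2 macrophage and 1 B cell marker called higher. They had 1 conventional dendritic, 2 macrophage and 2 NK cell markers called lower. Stimulated cells had 3 conventional dendritic and 2 macrophage markers called higher. They had 1 plasmacytoid dendritic, 2 conventional dendritic and 1 NK cell marker called lower. The part of these measures in the change of the members was not tested.

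**Figure D1:**
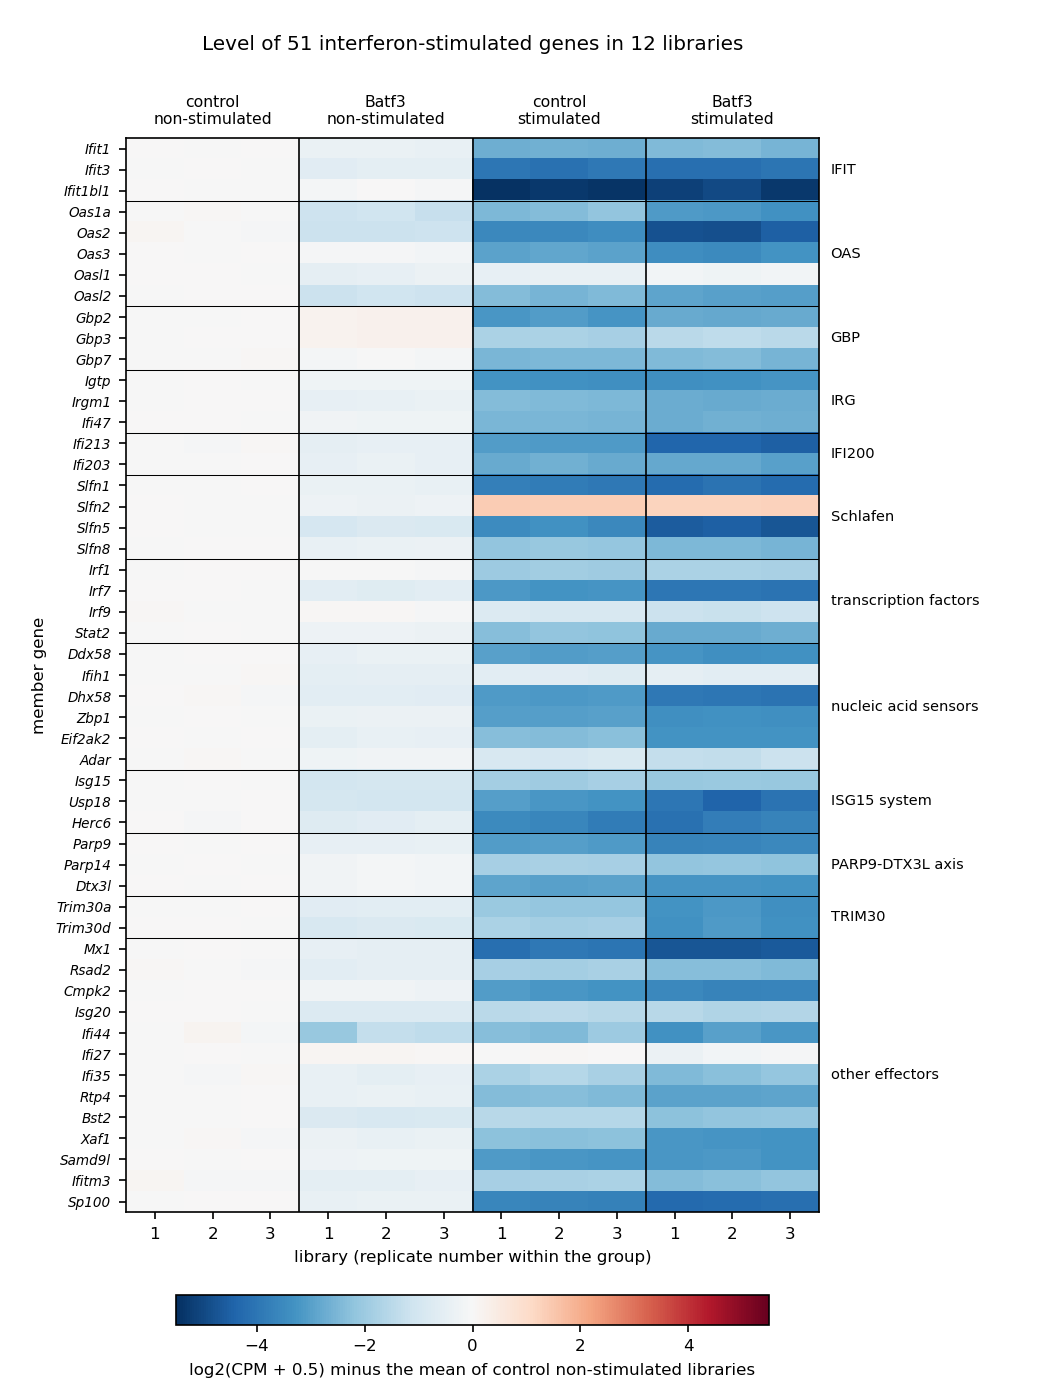
Heatmap of the 51 members (rows, grouped by family) in the 12 libraries (columns, 3 per group), coloured by log2(CPM + 0.5) minus the mean of the control non-stimulated libraries. The stimulated columns are far below the non-stimulated ones in nearly every row, and Slfn2 is the row that is above them. The Batf3 columns lie below their controls by much less.

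Of the 51 members, 36 fell with Batf3 in both cultures and 2 (Gbp2 and Gbp3) rose in both. Ifit1 and Oasl1 fell in non-stimulated cells and rose in stimulated cells. Irf1 rose and Irf9 and Ifi27 fell in stimulated cells without being called in non-stimulated cells, and for these 3 the difference between cultures passed the interaction test described further on. Another 7 members (Ifit3, Gbp7, Igtp, Ifih1, Herc6, Isg20 and Samd9l) fell in non-stimulated cells and were not called in stimulated cells, and Ifit1bl1 was not called in either. Of those 7, all but Gbp7 passed the interaction test, Herc6 and Samd9l not in every alternative setting. The groups behind these 2 comparisons share no library. They do share a common estimate of spread, and cells of the same transduction may stand in both cultures. A like change in both cultures is therefore not a replication over transductions. Across the 51 members Pearson's r between the 2 Batf3 changes was 0.65, against 0.41 across all 15702 tested genes, given as a description, since genes are not independent and all come from the same 12 libraries.

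The families differed in the size and direction of the Batf3 change. In non-stimulated cells the median log2 change was -1.14 over the 5 OAS members, -0.44 over the 2 IFI200, -0.37 over the 3 IFIT, -0.37 over the 4 Schlafen and 0.21 over the 3 GBP members. In stimulated cells the same medians were -0.53, -0.74, 0.23, -0.37 and 0.32. With 2 to 5 genes each, these medians describe the members and carry no test. Of the other groups, the ISG15 system had medians of -0.99 and -0.22 in the 2 cultures and the TRIM30 genes -0.72 and -1.33.

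**Figure D2:**
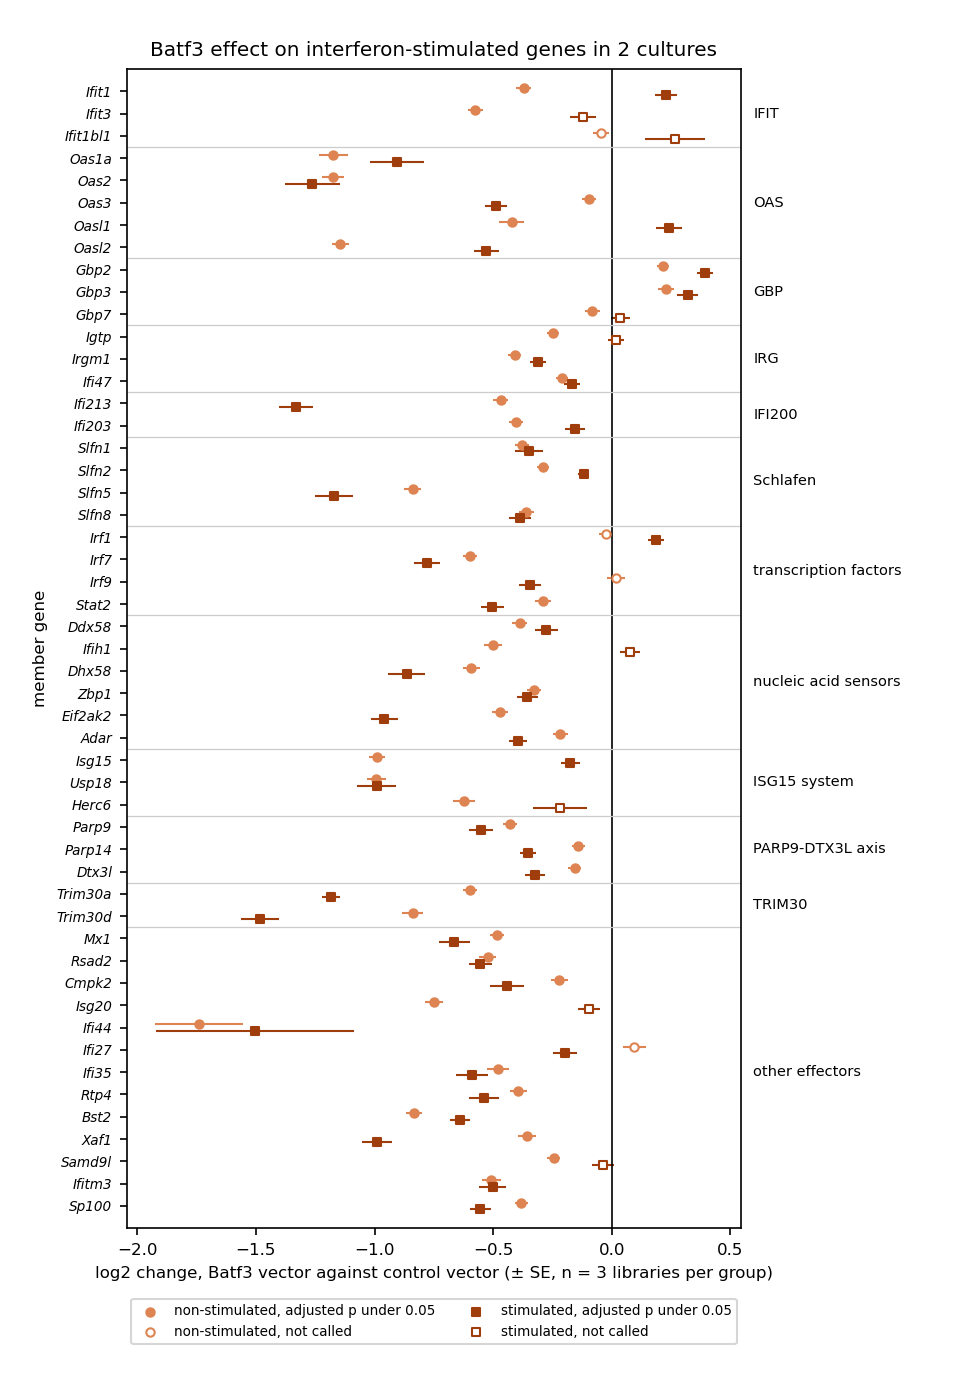
Log2 change (± SE, n = 3 libraries per group) of each of the 51 members with Batf3 against control vector, in non-stimulated (circles) and stimulated cells (squares), with open symbols where the adjusted p was not under 0.05. Most symbols lie left of 0. Gbp2 and Gbp3 lie right of 0 in both cultures, and Ifit1 and Oasl1 lie left of it in non-stimulated and right of it in stimulated cells.

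The IFIT proteins bind viral RNA and block its translation. The 3 member genes lie near one another on chromosome 19 (Ifit3 at chr19:34583531-34588731, Ifit1bl1 at chr19:34592891-34601956 and Ifit1 at chr19:34640871-34650009, GRCm38). All 3 were much lower after stimulation. Ifit1 and Ifit3 fell with Batf3 in non-stimulated cells, and after stimulation the change of Ifit1 was reversed and that of Ifit3 was not called. Ifit3 stood at 597, 604 and 590.2 CPM in control and 384, 409 and 409 CPM in Batf3 non-stimulated cells. The groups do not overlap, and Ifit3 fell with a log2 change of -0.57 ± 0.030 (adjusted p = 8.38e-25). In stimulated cells it had 37.8, 34.5 and 39.1 CPM with control and 32.7, 33.5 and 36.1 CPM with Batf3 vector. Those groups overlap and the change was not called (-0.12 ± 0.054, adjusted p = 0.0824), although it was called lower without control stimulated replicate 2, without Batf3 stimulated replicate 3 or without the filter on low counts (log2 change -0.18 to -0.15, adjusted p 0.019 to 0.0419).

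Ifit1, which recognises RNA lacking the host's cap methylation, had 346, 333 and 346 CPM in control and 269, 267 and 257 CPM in Batf3 non-stimulated cells, a log2 change of -0.37 ± 0.032 (adjusted p = 3.17e-15). After stimulation the order was the opposite. Control libraries had 52.2, 54.6 and 52.9 CPM and Batf3 libraries 63.4, 65.7 and 58.1 CPM, a log2 change of 0.23 ± 0.046 (adjusted p = 6.06e-05), again with no overlap. Ifit1bl1, a close relative of Ifit1, had 274, 265 and 268 CPM with control and 251.5, 272 and 258 CPM with Batf3 vector in non-stimulated cells (-0.05 ± 0.034, adjusted p = 0.298). Stimulated cells had 5.71, 6.33 and 5.94 CPM with control and 7.14, 8.16 and 6.34 CPM with Batf3 vector (0.27 ± 0.13, adjusted p = 0.0963), so neither comparison was called. Without Batf3 stimulated replicate 3, or with library sizes alone, the stimulated comparison was called higher (0.31 to 0.35, adjusted p 0.0444 to 0.045). The relatives outside the list were Ifit2, Ifit3b and Ifit1bl2. All 3 fell in non-stimulated cells, with a median change of -0.56, against -0.37 over the 3 members. In stimulated cells Ifit2 fell (mean 23.8 to 14.2 CPM, -0.75 ± 0.076, adjusted p = 1.2e-13) and the other 2 were not called. Ifit3 and Ifit3b are near-identical copies, so the counts may be split between them in a way that was not tested.

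OAS proteins sense double-stranded RNA and make the messenger that activates RNase L, while Oasl1 and Oasl2 are related proteins, of which Oasl1 is known to hold back translation of Irf7. Oas1a, Oas2 and Oas3 lie on chromosome 5 at chr5:120896256-120907521, chr5:120730333-120749853 and chr5:120753098-120777661, and Oasl2 and Oasl1 at chr5:114896936-114912234 and chr5:114923240-114937915. This family held the largest falls among the 5 families in non-stimulated cells, and its members differed among themselves. Oas2 stood at 159, 145 and 144 CPM in control and 65.9, 65.8 and 66.98 CPM in Batf3 non-stimulated cells, a log2 change of -1.17 ± 0.046 (adjusted p = 6.21e-31). The stimulated libraries had 12.4, 12.2 and 13.6 CPM with control and 4.98, 4.75 and 6.20 CPM with Batf3 vector (-1.26 ± 0.12, adjusted p = 2.04e-14). In both cultures all Batf3 libraries lay below all controls and the fall was over 2-fold. Oas1a went from 64.4, 67.96 and 64.3 to 29.5, 30.4 and 27.3 CPM (-1.17 ± 0.061, adjusted p = 5.55e-25) without stimulation. With stimulation it went from 11.6, 11.97 and 14.1 to 7.14, 6.83 and 6.12 CPM (-0.90 ± 0.11, adjusted p = 8.3e-10). The stimulated levels of Oas1a and Oas2 were low, and the errors of these changes are wider.

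Oasl2 fell from 275, 282 and 282 to 124, 129 and 127 CPM in non-stimulated cells (-1.14 ± 0.035, adjusted p = 5.34e-36). In stimulated cells its fall was smaller, from 53.1, 47.8 and 51.8 to 36.5, 35.1 and 34.3 CPM (-0.53 ± 0.052, adjusted p = 5.66e-13), and the 2 changes differed (0.62 ± 0.063, interaction, adjusted p = 5.47e-12). Oas3, the largest OAS protein, fell more in stimulated cells (-0.39 ± 0.055, interaction, adjusted p = 6.57e-08). Its non-stimulated levels were 471, 469 and 470.2 CPM with control and 446, 443 and 429 CPM with Batf3 vector (-0.10 ± 0.030, adjusted p = 0.00662). Its stimulated levels were 59.8, 64.6 and 61.2 CPM with control and 43.9, 40.9 and 47.4 CPM with Batf3 vector (-0.49 ± 0.047, adjusted p = 1.83e-13). The small non-stimulated fall of Oas3 was not called with library sizes alone, without any one of the 3 control stimulated libraries, without Batf3 non-stimulated replicate 3 or without Batf3 stimulated replicate 1 (-0.08 to -0.02, adjusted p 0.0533 to 0.6).

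Oasl1 was the OAS member with a different course. It had 62.3, 62.5 and 61.4 CPM in control and 44.2, 44.99 and 49.7 CPM in Batf3 non-stimulated cells (-0.42 ± 0.052, adjusted p = 3.75e-10). Stimulated cells had 45.5, 46.1 and 46.8 CPM with control and 55.1, 52.2 and 56.4 CPM with Batf3 vector (0.24 ± 0.055, adjusted p = 0.000325). Batf3 libraries lay below the controls in one culture and above them in the other. Stimulation lowered Oasl1 with the control vector (-0.43 ± 0.053, adjusted p = 9.15e-11) and raised it with the Batf3 vector (0.24 ± 0.053, adjusted p = 5.86e-05), the latter not called with library sizes alone (0.02, adjusted p = 0.706). Of the 7 further Oas1 genes 4 were tested, and among them Oas1g, a near-identical neighbour of Oas1a, fell in both cultures (-1.24 ± 0.091 and -0.96 ± 0.17, adjusted p = 1.98e-18 and 6.53e-06) while Oas1b rose in non-stimulated cells (0.19 ± 0.058, adjusted p = 0.00505). No source used here says how reads shared by Oas1a and Oas1g were counted.

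Guanylate-binding proteins (GBPs) are large GTPases that coat pathogens and the vacuoles around them. The member genes lie together on chromosome 3 (Gbp7 at chr3:142530342-142550149, Gbp3 at chr3:142560026-142573209 and Gbp2 at chr3:142620602-142638008). Gbp2 and Gbp3 were the only members that rose with Batf3 in both cultures. Gbp2 stood at 1014, 1018 and 1026 CPM in control and 1162, 1198 and 1189 CPM in Batf3 non-stimulated cells, a log2 change of 0.21 ± 0.026 (adjusted p = 2.26e-10). Stimulated libraries had 111, 119.97 and 107 CPM with control and 149.98, 146 and 147 CPM with Batf3 vector (0.39 ± 0.033, adjusted p = 1.88e-15). In both cultures the Batf3 libraries lay above the controls without overlap. Gbp3 had 199, 209 and 206 CPM with control and 235, 243 and 241 CPM with Batf3 vector in non-stimulated cells (0.23 ± 0.033, adjusted p = 3.81e-08). In stimulated cells Gbp3 had 60.6, 61.1 and 57.8 CPM with control and 73.7, 77.4 and 72.9 CPM with Batf3 vector (0.32 ± 0.044, adjusted p = 1.78e-08). Gbp7 did not join them. Its levels were 443, 447 and 467 CPM with control and 419, 441 and 421 CPM with Batf3 vector in non-stimulated cells (-0.08 ± 0.030, adjusted p = 0.0255), and 78.3, 82.3 and 80.2 CPM with control and 83.9, 86.1 and 76.9 CPM with Batf3 vector in stimulated cells (0.04 ± 0.041, adjusted p = 0.569). The non-stimulated fall of Gbp7 was not called in 12 of 18 alternative settings (-0.08 to -0.01, adjusted p 0.0651 to 0.878). These include leaving out control non-stimulated replicate 3, Batf3 non-stimulated replicate 1 or 3, any control stimulated library, or Batf3 stimulated replicate 1 or 2.

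The other 8 GBP genes did not follow Gbp2 and Gbp3 as a group. In non-stimulated cells 2 rose and 2 fell (background 16.3% and 23.0%), in stimulated cells 1 rose and 3 fell (14.8% and 14.6%). Gbp11 rose most in non-stimulated cells (0.32 ± 0.039, adjusted p = 4.09e-10) and Gbp4 rose in stimulated cells (0.14 ± 0.035, adjusted p = 0.00129). Gbp9 fell in both (-0.41 ± 0.029 and -0.62 ± 0.054, adjusted p = 8.74e-19 and 7.92e-16). Several GBP genes are close copies of each other, so their counts depend on how shared reads were treated.

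The immunity-related GTPases, which act with GBPs on pathogen vacuoles, fell with Batf3 in non-stimulated cells. Igtp, also called Irgm3, is a regulatory member of that family and had 1306, 1313 and 1299 CPM in control and 1103, 1102 and 1097 CPM in Batf3 non-stimulated cells (-0.25 ± 0.025, adjusted p = 1.22e-12). After stimulation the libraries had 133, 128 and 126 CPM with control and 126, 129 and 138 CPM with Batf3 vector, which was not called (0.02 ± 0.032, adjusted p = 0.739). Irgm1, another regulatory member, fell in both cultures, with log2 changes of -0.41 ± 0.027 and -0.31 ± 0.034 (adjusted p = 3.86e-20 and 1.68e-11). Ifi47 also fell in both, from 777 ± 13.3 to 672 ± 13.5 CPM and from 135 ± 2.45 to 119.9 ± 3.55 CPM (means ± SD, -0.21 ± 0.026 and -0.17 ± 0.033, adjusted p = 5.63e-10 and 3.91e-05). Of the other 6 IRG genes, 5 fell and none rose in non-stimulated cells, where Iigp1 fell most (-0.45 ± 0.039, adjusted p = 5.64e-15), and 1 (Gm12250, -0.29 ± 0.070, adjusted p = 0.000646) fell in stimulated cells. Among the most abundant members per kilobase of exon (RPKM), Igtp led in control non-stimulated cells at 646 ± 3.37, followed by Gbp2 at 405 ± 2.40 and Isg15 at 404 ± 3.18, which did not differ beyond their SD. Ifit3 (342 ± 3.84) and Ifi47 (314 ± 5.40) came next, and Ifi44 was lowest at 1.35 ± 0.146.

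IFI200 proteins bind DNA through HIN domains, and their genes form a cluster on chromosome 1 with Ifi213 at chr1:173566283-173599274 and Ifi203 at chr1:173920407-173942672. Here the fall with Batf3 was larger in stimulated cells for Ifi213 and smaller for Ifi203. Ifi213 stood at 307, 298 and 319 CPM in control and 216, 226 and 224 CPM in Batf3 non-stimulated cells (-0.47 ± 0.033, adjusted p = 6.64e-19). With stimulation it had 36.4, 35.1 and 34.6 CPM with control and 14.5, 14.3 and 13.3 CPM with Batf3 vector (-1.33 ± 0.072, adjusted p = 8.58e-26). The groups do not overlap in either culture, and the difference between the 2 changes (-0.86 ± 0.076, adjusted p = 1.15e-14) was the most negative among the 51 members. Ifi203 had 639.8, 632 and 652 CPM with control and 476, 505 and 474 CPM with Batf3 vector in non-stimulated cells (-0.40 ± 0.030, adjusted p = 1.21e-16). Its stimulated levels were 94.9, 101 and 94.5 CPM with control and 90.1, 90.9 and 80.2 CPM with Batf3 vector (-0.16 ± 0.041, adjusted p = 0.00235).

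Of 10 further IFI200 genes, 9 fell in each culture and none rose, and their median change was -0.54 in non-stimulated and -0.94 in stimulated cells. For 8 of them the change was more negative in stimulated cells by the interaction test, and for none was it less negative. Ifi207 fell most in non-stimulated cells (mean 24.7 to 14.2 CPM, -0.80 ± 0.086, adjusted p = 6.02e-12). In stimulated cells Ifi208 fell most (mean 10.9 to 4.35 CPM, -1.33 ± 0.13, adjusted p = 6.37e-15). The DNA sensor Aim2, of the same cluster, changed by 0.06 ± 0.070 in non-stimulated and -0.07 ± 0.081 in stimulated cells (adjusted p = 0.545 and 0.572). It is named here after its values were seen. The genes of this cluster are recent duplicates, so a part of each count may belong to a neighbour.

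Schlafen genes regulate lymphocyte growth, and Slfn2 is needed to keep T cells quiescent. The 4 members lie on chromosome 11 (Slfn5 at chr11:82951349-82964840, Slfn8 at chr11:83002158-83020810, Slfn2 at chr11:83065112-83070678 and Slfn1 at chr11:83116849-83122670) and all 4 fell with Batf3 in both cultures. Slfn5 fell most. It had 295, 290.3 and 290.02 CPM in control and 156, 168 and 165 CPM in Batf3 non-stimulated cells (-0.84 ± 0.036, adjusted p = 7.52e-29). The stimulated libraries had 25.9, 28.5 and 24.4 CPM with control and 11.8, 12.7 and 10.5 CPM with Batf3 vector (-1.17 ± 0.080, adjusted p = 4.24e-20). All Batf3 libraries lay below all controls in both cultures.

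Slfn2 was the one member that stimulation raised with both vectors. Its levels were 354, 348 and 349 CPM in control and 286, 284 and 291 CPM in Batf3 non-stimulated cells (-0.29 ± 0.026, adjusted p = 2.68e-14). They were 926, 894 and 887 CPM with control and 827, 831 and 836 CPM with Batf3 vector in stimulated cells (-0.12 ± 0.025, adjusted p = 9.52e-05). The rise with stimulation was 1.36 ± 0.025 with the control and 1.53 ± 0.026 with the Batf3 vector (adjusted p = 6e-50 and 1.56e-52). Slfn1 went the other way, from 491 to 34.1 CPM with the control vector (-3.85 ± 0.043, adjusted p = 2.16e-64). With Batf3, Slfn1 fell, with log2 changes of -0.38 ± 0.030 and -0.35 ± 0.059 in the 2 cultures (adjusted p = 7.24e-17 and 6.48e-07). Slfn8 fell, with log2 changes of -0.36 ± 0.032 and -0.39 ± 0.045 (adjusted p = 8.89e-15 and 1.24e-10). Of the 4 tested Schlafen genes outside the list, 3 fell and none rose in non-stimulated cells, led by Slfn3 (-0.63 ± 0.064, adjusted p = 1.31e-12), while in stimulated cells none fell and Slfn10-ps rose (0.24 ± 0.056, adjusted p = 0.000385). Slfn8 and Slfn9 are close copies whose reads may be shared. Slfn4 rose with stimulation as Slfn2 did (1.04 ± 0.11 with the control and 1.16 ± 0.11 with the Batf3 vector, adjusted p = 1.45e-13 and 9.43e-15).

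**Figure D3:**
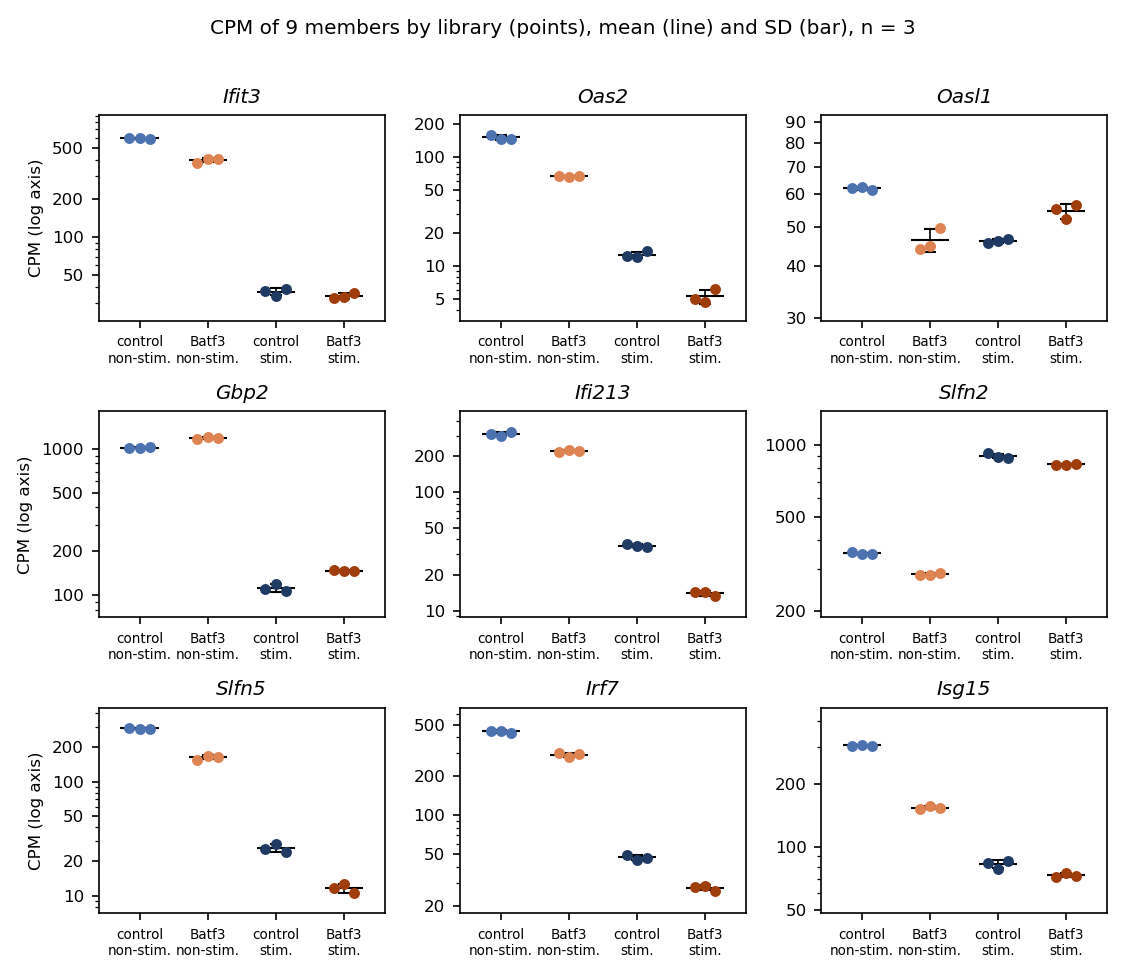
CPM (log axis) of 9 members in each of the 12 libraries (points), with the group mean (line) and SD (bar), n = 3 per group. Oas2, Ifi213, Slfn5 and Irf7 are lower with Batf3 in both cultures, Gbp2 is higher in both, Oasl1 changes sides, and Slfn2 is higher after stimulation. The 7 genes other than Slfn2 and Oasl1 are well below their non-stimulated level after stimulation.

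Among the transcription factors, Irf7 and Stat2 fell in both cultures, Irf9 in stimulated cells, and Irf1 rose in stimulated cells. Irf7 amplifies type I interferon responses and stood at 451, 447 and 433 CPM in control and 299.7, 282 and 296 CPM in Batf3 non-stimulated cells (-0.60 ± 0.031, adjusted p = 6.29e-25). Stimulated libraries had 49.5, 45.4 and 46.5 CPM with control and 28.05, 28.1 and 26.1 CPM with Batf3 vector (-0.78 ± 0.055, adjusted p = 2.93e-19). Stat2, a subunit of the ISRE-binding complex, fell, with log2 changes of -0.29 ± 0.033 and -0.50 ± 0.048 in the 2 cultures (adjusted p = 3.15e-11 and 1.65e-13). Irf9, its DNA-binding subunit, had 167, 155 and 155 CPM with control and 165, 165 and 154 CPM with Batf3 vector in non-stimulated cells (0.02 ± 0.038, adjusted p = 0.756). After stimulation it had 93.7, 85.1 and 86.4 CPM with control and 70.5, 67.6 and 70.9 CPM with Batf3 vector, without overlap (-0.34 ± 0.046, adjusted p = 6.72e-09). Irf1, which acts downstream of interferon-γ, had 429.7, 434 and 435 CPM with control and 425, 432 and 419 CPM with Batf3 vector in non-stimulated cells (-0.03 ± 0.028, adjusted p = 0.503). In stimulated cells it rose from 108, 114 and 112 to 128, 128 and 125 CPM (0.19 ± 0.034, adjusted p = 1.32e-05). With library sizes alone, Irf9 was called higher in non-stimulated cells (0.09, adjusted p = 0.0461).

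All 6 nucleic acid sensors and effectors fell with Batf3 in non-stimulated cells, and 5 of the 6 fell in stimulated cells. Ddx58, the RNA sensor RIG-I, fell, with log2 changes of -0.39 ± 0.030 and -0.28 ± 0.049 (adjusted p = 7.38e-17 and 5.4e-06). Zbp1, a sensor of Z-form nucleic acid, went from 489 ± 3.29 to 389.7 ± 4.38 CPM in non-stimulated cells (mean ± SD, -0.33 ± 0.028, adjusted p = 2.04e-15) and fell with a log2 change of -0.36 ± 0.044 in stimulated cells (adjusted p = 5.36e-10). Eif2ak2, the kinase PKR, had 237, 229 and 240.1 CPM in control and 163, 176 and 169.7 CPM in Batf3 non-stimulated cells (-0.47 ± 0.035, adjusted p = 5.79e-18). Its stimulated levels were 45.5, 45.1 and 47.8 CPM with control and 23.95, 23.8 and 23.5 CPM with Batf3 vector (-0.96 ± 0.058, adjusted p = 6.54e-22). Ifih1, the RNA sensor MDA5, was the exception: it fell from 139, 139 and 146 to 97.3, 101 and 101 CPM in non-stimulated cells (-0.50 ± 0.039, adjusted p = 4.34e-17). In stimulated cells it had 92.97, 92.5 and 87.05 CPM with control and 98.8, 95.03 and 93.4 CPM with Batf3 vector, which was not called (0.08 ± 0.042, adjusted p = 0.182) except with library sizes alone (0.12, adjusted p = 0.0221). The other two, Dhx58 (LGP2) and the RNA-editing enzyme Adar, fell in both cultures, with log2 changes of -0.59 and -0.22 in non-stimulated and -0.86 and -0.39 in stimulated cells.

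The ISG15 system attaches the ubiquitin-like protein Isg15 to other proteins. Isg15 stood at 304, 308 and 304 CPM in control and 151, 156 and 154 CPM in Batf3 non-stimulated cells (-0.99 ± 0.033, adjusted p = 3.07e-34). In stimulated cells the levels were closer, at 83.7, 78.4 and 85.2 CPM with control and 71.9, 74.7 and 72.5 CPM with Batf3 vector (-0.17 ± 0.042, adjusted p = 0.000645), still without overlap. Usp18 removes Isg15 and damps signalling at Ifnar2. It fell in both cultures, from 221, 221 and 227 to 114, 111 and 112 CPM (-0.99 ± 0.040, adjusted p = 6.85e-30). The stimulated values were 26.8, 23.9 and 22.7 CPM with control and 13.8, 10.2 and 12.9 CPM with Batf3 vector (-0.99 ± 0.083, adjusted p = 5.93e-16), and the 2 changes were not called different (0.00 ± 0.092, interaction, adjusted p = 0.998). Herc6, the ligase for Isg15, fell in non-stimulated cells from 127 to 82.2 CPM (-0.62 ± 0.047, adjusted p = 1.32e-17). It was not called in stimulated cells (-0.22 ± 0.11, adjusted p = 0.145), but was called lower there without control stimulated replicate 3 or Batf3 stimulated replicate 3 (-0.33 to -0.32, adjusted p 0.0367 to 0.0424).

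Trim30a, which restrains Toll-like receptor signalling, and its neighbour Trim30d fell in both cultures, and by the interaction test they fell more in stimulated cells. Trim30d had 110.3, 111 and 109 CPM in control and 60.1, 63.6 and 61.2 CPM in Batf3 non-stimulated cells (-0.84 ± 0.046, adjusted p = 9.85e-24). In stimulated cells it had 32.7, 29.6 and 30.6 CPM with control and 10.4, 12.3 and 10.5 CPM with Batf3 vector (-1.48 ± 0.082, adjusted p = 1.96e-24). Trim30a went from 702 to 464 CPM (-0.60 ± 0.029, adjusted p = 1.03e-25) and from 169.7, 160.1 and 158 to 70.97, 77.3 and 66.5 CPM (-1.18 ± 0.039, adjusted p = 1.71e-34). These 2 genes are related copies and their counts may be shared in part. Parp9, Parp14 and Dtx3l, which act together on ADP-ribosylation, all fell in both cultures, with log2 changes of -0.14 to -0.43 in non-stimulated and -0.32 to -0.55 in stimulated cells. Parp14 was not called in non-stimulated cells with library sizes alone (-0.07, adjusted p = 0.0514). Dtx3l and Parp9 overlap on opposite strands at chr16:35938470-35939151, where they share a promoter region, and no source used here gives the strand setting of the counting.

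Of the 13 further effectors, 12 fell in non-stimulated and 11 in stimulated cells, and none rose. Mx1, a GTPase that restricts influenza virus and is defective in C57BL/6 mice as in most laboratory strains, had 536, 544 and 533 CPM in control and 389, 383 and 380.5 CPM in Batf3 non-stimulated cells (-0.48 ± 0.029, adjusted p = 7.44e-22). Its stimulated levels were 30.1, 34.98 and 32.7 CPM with control and 20.3, 20.2 and 21.2 CPM with Batf3 vector (-0.66 ± 0.064, adjusted p = 1.06e-14). Rsad2, the antiviral enzyme viperin, fell, with log2 changes of -0.52 ± 0.035 and -0.55 ± 0.049 in the 2 cultures (adjusted p = 1.17e-19 and 8.45e-15). Bst2, which tethers virions to the cell, went from 257, 256 and 263 to 148, 142 and 146 CPM in non-stimulated cells (-0.83 ± 0.034, adjusted p = 7.25e-30). It fell with a log2 change of -0.64 ± 0.044 in stimulated cells (adjusted p = 1.95e-19). Xaf1, an antagonist of the apoptosis inhibitor XIAP, fell with a log2 change of -0.36 ± 0.037 in non-stimulated cells (adjusted p = 1.39e-12). In stimulated cells Xaf1 had 39.5, 38.2 and 38.7 CPM with control and 20.01, 19.7 and 18.9 CPM with Batf3 vector (-0.99 ± 0.064, adjusted p = 8.88e-21). Isg20, an exonuclease that degrades RNA, had 182, 181 and 175 CPM with control and 107, 106 and 107 CPM with Batf3 vector in non-stimulated cells (-0.75 ± 0.037, adjusted p = 1.33e-25). In stimulated cells Isg20 was not called (-0.10 ± 0.047, adjusted p = 0.12), except without Batf3 stimulated replicate 1 (-0.14, adjusted p = 0.0325).

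The remaining effectors were Cmpk2, Ifi44, Ifi27, Ifi35, Rtp4, Samd9l, Ifitm3 and Sp100. Ifi44 had the largest fall of all 51 members in both cultures (-1.74 ± 0.19 and -1.50 ± 0.42), but at low levels, with a mean of 8.29 and 2.48 CPM in non-stimulated and 1.35 and 0.469 CPM in stimulated cells. It is named here after its values were seen. Ifi27 was the effector that did not fall in non-stimulated cells, at 68.7, 69.8 and 68.6 CPM with control and 75.2, 74.5 and 71.5 CPM with Batf3 vector (0.10 ± 0.048, adjusted p = 0.107). It was called higher there in 7 of 18 alternative settings (0.12 to 0.17, adjusted p 0.00309 to 0.0416): with library sizes alone, with only the 6 libraries compared, and without any one of the control stimulated libraries or Batf3 stimulated replicate 1 or 2. Apart from library sizes alone, these settings all shifted the median of all tested genes by 0.028 to 0.029. The other 6 effectors changed by -0.51 to -0.22 in non-stimulated and by -0.59 to -0.04 in stimulated cells.

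Stimulation lowered nearly all of the members far more than Batf3 did. With the control vector 49 of the 51 fell and 1 rose, where 40.7% of all tested genes were called lower and 39.6% higher. With the Batf3 vector 48 fell and 2 rose (background 41.4% and 41.2%). The 3 stimulated libraries lay below the 3 non-stimulated ones in 49 members and above them in 1 with the control vector (background 41.1% and 40.1%), and in 48 and 2 with the Batf3 vector (41.4% and 41.2%). At least 2-fold falls were seen in 45 members with the control vector (background 24.1%) and in 46 with the Batf3 vector (background 24.4%). The median change was -2.49 with either vector, against -0.01 and 0.01 over all tested genes. The members took 1.95% to 1.96% of all counts in control non-stimulated and 0.366% to 0.375% in control stimulated libraries. Without TMM scaling the median of all tested genes moved by -0.19 and -0.21 in these 2 comparisons, a small shift beside the falls of the members. Marker lists moved in the same comparison. Of the 9 CD8 T cell markers 8 fell with stimulation in the control vector and Cd5 rose (3.40 ± 0.041, adjusted p = 4.61e-62). The sums of both dendritic cell lists more than doubled, the plasmacytoid one through Runx2 (44.7 to 132 CPM) and the conventional one mainly through Cd74 (13.3 to 72.6 CPM). Of the plasmacytoid list 3 of 8 genes were tested, of which 1 rose and 2 fell, and of the conventional list 6 of 10, of which 3 rose and 3 fell. The part of these genes' changes in that of the members was not tested. The labels name IL-15 for one culture and the antibodies for the other, and the shares of these 2 differences cannot be told apart.

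Ifit1bl1 fell most with stimulation, from 269 to 5.99 CPM with the control vector (-5.49 ± 0.095, adjusted p = 6.45e-63) and from 260.4 to 7.22 CPM with the Batf3 vector (-5.17 ± 0.085, adjusted p = 1.83e-62). Ifit3 fell, with log2 changes of -4.01 ± 0.043 and -3.55 ± 0.044, and Ifit1 with changes of -2.68 ± 0.041 and -2.08 ± 0.039. Mx1 fell with a log2 change of -4.04 ± 0.043 with the control and -4.22 ± 0.051 with the Batf3 vector (adjusted p = 9.54e-66 and 8.8e-65). Sp100, a nuclear body protein, fell, with log2 changes of -3.68 ± 0.034 and -3.85 ± 0.037 (adjusted p = 1.86e-67 and 2.96e-67). Herc6 fell with a log2 change of -3.70 ± 0.084 with the control vector and Dhx58 with a change of -3.43 ± 0.065 with the Batf3 vector. Gbp2 fell from 1019 to 113 CPM with the control vector (-3.18 ± 0.030, adjusted p = 7.02e-66). Apart from Slfn2, the members least lowered with the control vector were Ifi27, Oasl1, Ifih1, Irf9 and Adar. Ifi27 had a mean of 69.03 CPM in control non-stimulated and 69.7 CPM in control stimulated cells (0.01 ± 0.049, adjusted p = 0.791), and it was called lower there with library sizes alone (-0.17, adjusted p = 0.00136). Ifih1 fell with the control vector (-0.64 ± 0.040, adjusted p = 2.07e-22) and was not called with the Batf3 vector (-0.06 ± 0.041, adjusted p = 0.157). That comparison of Ifih1 was called lower in 6 of 17 alternative settings (-0.28 to -0.09, adjusted p 1.09e-08 to 0.0347): library sizes alone, no filter on low counts, and without any one of the control stimulated libraries or Batf3 stimulated replicate 1. Leaving out any of these libraries shifted the median of all tested genes by -0.042 to -0.040.

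The Batf3 change differed between the 2 cultures for 33 of the 51 members by the interaction test, which takes the Batf3 change in stimulated minus that in non-stimulated cells. It was more positive in stimulated cells for 15 members (background 14.6%) and more negative for 18 (background 6.08%), and the median over the 51 was 0.00 (0.05 over all tested genes). The families went different ways. The IFIT members had a median interaction of 0.45, with Ifit1 (0.60 ± 0.056, adjusted p = 2.76e-13) and Ifit3 (0.45 ± 0.061, adjusted p = 2.06e-08) called. In the OAS family Oasl1 and Oasl2 were called positive, Oas3 was called negative and the other two were not called. Gbp2 was called positive at 0.18 ± 0.042 (adjusted p = 0.000846), but not without control stimulated replicate 3 (0.11, adjusted p = 0.101). Of the 8 other GBP genes, 3 were called negative and none positive. Ifi213 was negative and Ifi203 positive (0.25 ± 0.051, adjusted p = 0.000154). Slfn5 was negative (-0.33 ± 0.087, adjusted p = 0.0027) and Slfn2 positive (0.17 ± 0.036, adjusted p = 0.000206). Slfn1 and Slfn8 were not called.

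**Figure D4:**
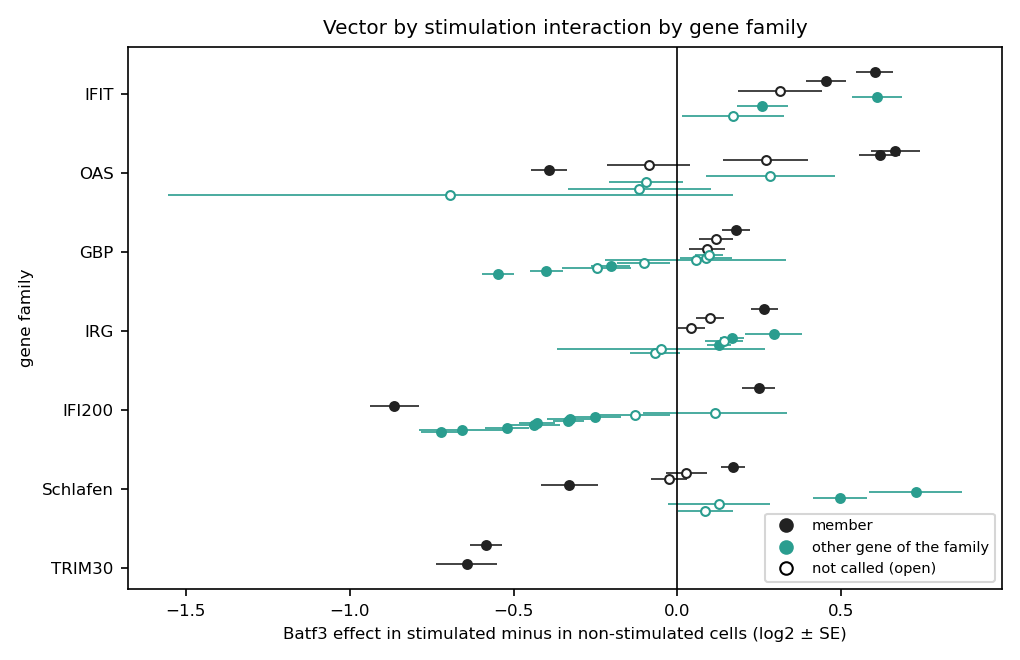
Batf3 change in stimulated minus that in non-stimulated cells (log2 ± SE) for members (black) and other genes of the same family (green), one row per family, with open symbols where the adjusted p was not under 0.05. The IFIT genes lie right of 0, the IFI200 genes other than Ifi203 mostly lie left of it, as do both TRIM30 genes, and OAS, GBP and Schlafen genes lie on both sides.

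Outside these families, Isg15 had the most positive interaction (0.82 ± 0.053, adjusted p = 1.65e-19), followed by Isg20 (0.65 ± 0.060, adjusted p = 1.34e-13) and Ifih1 (0.58 ± 0.057, adjusted p = 2.04e-12). Isg15 fell with Batf3 in both cultures, and the other two were not called in stimulated cells. Herc6 was called at 0.41 ± 0.12 (adjusted p = 0.0114), but not without control stimulated replicate 3 or Batf3 stimulated replicate 2 or 3 (0.28 to 0.35, adjusted p 0.0693 to 0.149). Trim30d (-0.64 ± 0.094, adjusted p = 1.07e-07), Xaf1 (-0.63 ± 0.073, adjusted p = 2.53e-10), Trim30a (-0.58 ± 0.048, adjusted p = 3.46e-15) and Eif2ak2 (-0.49 ± 0.068, adjusted p = 4.19e-08) were the most negative. Irf9 (-0.36 ± 0.059) and Stat2 (-0.21 ± 0.058) were also negative, and Irf1 (0.21 ± 0.044) was positive. Irf7 was called at -0.18 ± 0.062 (adjusted p = 0.0259). Irf7 was not called without control non-stimulated replicate 3, control stimulated replicate 1, Batf3 non-stimulated replicate 1 or 3, or Batf3 stimulated replicate 3 (-0.18 to -0.15, adjusted p 0.0502 to 0.113).

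The rest of the pathway was read from lists that were chosen, like the members, with earlier results known. Of 20 interferon genes 5 passed the filter, and all 5 rose with stimulation in both vectors (background 39.6% and 41.2%). Ifng, which encodes interferon-γ, went from 14.2, 15.9 and 13.8 CPM to 13188, 12921 and 12802 CPM with the control vector (9.79 ± 0.056, adjusted p = 4.91e-76). With the Batf3 vector it went from 16.4, 17.2 and 14.2 to 11898, 11661 and 11583 CPM (9.52 ± 0.053, adjusted p = 1.1e-75). The members were low in the cultures where Ifng was high. With Batf3 Ifng fell in stimulated cells (-0.15 ± 0.022, adjusted p = 2.38e-07). Ifnb1, the gene of interferon-β, was near the limit of detection without stimulation (mean 0.398 and 0.405 CPM) and fell with Batf3 in stimulated cells from 3.65, 3.51 and 2.74 to 2.08, 1.85 and 1.70 CPM (-0.81 ± 0.25, adjusted p = 0.00827).

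Of the 9 receptor and kinase genes, 7 fell and 2 rose with stimulation in each vector. The background was 40.7% lower and 39.6% higher with the control vector, and 41.4% and 41.2% with the Batf3 vector. Ifngr1 fell from 353 to 14.5 CPM with the control vector (-4.60 ± 0.061, adjusted p = 1.07e-64), and Ifnar1 from 172 to 49.9 CPM (-1.78 ± 0.044, adjusted p = 5.86e-44). Jak2, a kinase of the interferon-γ receptor, rose from 204 to 892 CPM (2.13 ± 0.028, adjusted p = 2.05e-58). With Batf3 in non-stimulated cells 3 of the 9 rose and 3 fell (background 16.3% and 23.0%). Both chains of the interferon-γ receptor were higher, Ifngr1 at 359, 348 and 353 CPM with control and 429, 412 and 432 CPM with Batf3 vector (0.27 ± 0.030, adjusted p = 4.38e-11) and Ifngr2 with a change of 0.52 ± 0.088 (adjusted p = 1.52e-06), and both rose in stimulated cells too (0.45 ± 0.079 and 0.46 ± 0.16). Of the type I receptor, Ifnar2 fell in non-stimulated cells (-0.47 ± 0.057, adjusted p = 3.48e-10), and Ifnar1 changed by -0.02 ± 0.036 (adjusted p = 0.716). Jak1 changed by 0.12 ± 0.026, Jak2 by -0.43 ± 0.030 and Tyk2 by -0.03 ± 0.038 (adjusted p = 6.71e-05, 4.83e-19 and 0.607).

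Among other factors, Irf8, a partner of Batf3 at composite elements, fell, with log2 changes of -0.59 ± 0.037 and -0.75 ± 0.029 (adjusted p = 3.97e-21 and 1.26e-30). Irf3, which is activated by phosphorylation, was not called in any of the 5 comparisons, its Batf3 changes being -0.05 ± 0.048 and -0.06 ± 0.049 (adjusted p = 0.397 and 0.352). Tlr7, an endosomal RNA sensor, stood apart, at 22.8, 21.1 and 22.99 CPM in control and 2.42, 3.20 and 2.44 CPM in Batf3 non-stimulated cells (-3.05 ± 0.15, adjusted p = 2.43e-29). In stimulated cells it had 4.19, 4.19 and 3.43 CPM with control and 0.521, 0.371 and 0.516 CPM with Batf3 vector (-3.04 ± 0.35, adjusted p = 4.3e-14). Of the 15 sensing pathway genes found, 13 were tested. Of these, 5 fell and 1 rose in non-stimulated cells (background 23.0% and 16.3%). In stimulated cells 5 fell and 5 rose (background 14.6% and 14.8%). The feedback inhibitor Socs1 changed by -0.11 ± 0.041 and -0.32 ± 0.057 (adjusted p = 0.0292 and 4.79e-06). Of the 8 tested genes of its list 4 fell and 1 rose in non-stimulated cells. In stimulated cells 3 of them fell and 2 rose, against the same background shares.

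A further 77 interferon-induced genes outside the 51 included the relatives named above. Of the 71 that were tested, 56 fell and 4 rose with Batf3 in non-stimulated cells, with a median change of -0.33. In stimulated cells 41 fell and 4 rose, with a median of -0.29. Ifi27l2a fell most among those outside the 6 families in non-stimulated cells (-0.96 ± 0.042, adjusted p = 7.24e-28), and Lgals9 in stimulated cells (-0.97 ± 0.064, adjusted p = 4.77e-21), while Znfx1 rose there (0.46 ± 0.049, adjusted p = 8.1e-12). With stimulation 67 of the 71 fell and 3 rose in either vector, and the median was -2.55 in both. By the interaction test 19 were more positive and 19 more negative in stimulated cells. For these genes and for the family relatives named above, the background shares are those given for the members.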

How the data were processed

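Poly-A RNA of 12 libraries (4 groups of 3) was sequenced from a stranded kit, per the labels' protocols. The deposited values are whole-number read counts per gene, which the authors made with STAR 2.7 and featureCounts on GRCm38, per the submitters' processing notes. No source used here gives the annotation release, the strand setting or the handling of reads with several alignments. From these counts, edgeR 4.0.16 in R 4.3.3 (filterByExpr, TMM factors, robust quasi-likelihood fit, 4 group means, 8 residual degrees of freedom) gave 5 two-sided contrasts over 15702 genes. Genes were called at a Benjamini-Hochberg adjusted p under 0.05. SEs come from the model with moderated dispersion. CPM uses TMM-scaled library sizes without a pseudocount. RPKM and positions use GENCODE M21 exons (GRCm38). The code was tested on simulated data.

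The members and lists were chosen with earlier results of these data known. All members of the 5 families were named, and of the others those with the largest called changes and a mean of at least 10 CPM, plus a fixed set of regulators. Alternatives were library sizes alone, DESeq2 1.42.0 size factors, its Wald test, no filter, a replicate block, the 6 libraries compared alone, and leaving out each library. Those for the medians and for interferon-induced genes outside the list were added after seeing the data. Same-numbered libraries of different groups did not deviate together. Of the genes that the naming rule selects, 1 is not reported here.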

Additional observations from a re-analysis of the deposited data

Results flagged for a closer look

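For 33 of the 51 members the Batf3 change differed between stimulated and non-stimulated cells, by the interaction term of the edgeR model at an adjusted p under 0.05 (n = 3 libraries per group). Values are the Batf3 log2 change in stimulated minus that in non-stimulated cells. Over all tested genes 14.6% were called positive and 6.08% negative. The difference was positive for 15 members: Isg15 (0.82), Oasl1 (0.66), Isg20 (0.65), Oasl2 (0.62), Ifit1 (0.60), Ifih1 (0.58), Ifit3 (0.45) and Herc6 (0.41), then Igtp (0.26), Ifi203 (0.25), Irf1 (0.21), Samd9l (0.21), Bst2 (0.19), Gbp2 (0.18) and Slfn2 (0.17). It was negative for 18 members: Ifi213 (-0.86), Trim30d (-0.64), Xaf1 (-0.63), Trim30a (-0.58), Eif2ak2 (-0.49), Oas3 (-0.39), Irf9 (-0.36), Slfn5 (-0.33) and Ifi27 (-0.29), then Dhx58 (-0.27), Cmpk2 (-0.22), Stat2 (-0.21), Parp14 (-0.21), Irf7 (-0.18), Mx1 (-0.18), Adar (-0.18), Sp100 (-0.17) and Dtx3l (-0.17).

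Ifit1 and Oasl1 are the pair that fell with Batf3 in one culture and rose in the other, by both calls. Mx1, Cmpk2, Dhx58, Bst2 and Samd9l are among the members whose difference was small and was not called in some settings. For Mx1 this held in 7 of 17 alternative settings (-0.19 to -0.16, adjusted p 0.0509 to 0.124): with DESeq2, and without any one of the control non-stimulated libraries, control stimulated replicate 2 or Batf3 non-stimulated replicate 1 or 2. For Cmpk2 it held in 8 (-0.23 to -0.20, adjusted p 0.0521 to 0.102): with DESeq2, and without control non-stimulated replicate 1 or 2, control stimulated replicate 1, Batf3 non-stimulated replicate 1 or 2, or Batf3 stimulated replicate 2 or 3. Dhx58 was not called without Batf3 stimulated replicate 3 (-0.23, adjusted p = 0.0605). Bst2 was not called without the filter on low counts, or without control stimulated replicate 2 or 3 or Batf3 stimulated replicate 2 (0.14 to 0.16, adjusted p 0.0621 to 0.1). Samd9l was not called without control stimulated replicate 3 or Batf3 stimulated replicate 2 (0.13 to 0.14, adjusted p 0.0813 to 0.115). Conversely, Parp9, Gbp7 and Ifit1bl1 gained a call when 1 library was left out: Parp9 without control stimulated replicate 3 or Batf3 stimulated replicate 3 (-0.19 to -0.16, adjusted p 0.0228 to 0.0477), Gbp7 without Batf3 stimulated replicate 3 (0.17, adjusted p = 0.00961) and Ifit1bl1 without that library or Batf3 non-stimulated replicate 2 (0.34 to 0.40, adjusted p 0.025 to 0.0403).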

How the results depend on the processing

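The counts of members that fell kept within 1.5 times their value in every alternative that was run. Leaving out each library gave 43 to 45 lower and 2 to 3 higher members with Batf3 in non-stimulated cells, 38 to 40 and 5 to 6 in stimulated cells, 49 and 1 for stimulation with the control vector, 48 to 49 and 2 with the Batf3 vector, and 15 to 19 negative and 11 to 16 positive interactions. With library sizes alone, 4 members were higher with Batf3 in non-stimulated cells (2 with TMM), 1 was higher with stimulation and the Batf3 vector (2 with TMM), and Ifi27 turned from 0.01 to -0.17 with stimulation and the control vector. That scaling shifted the median of all tested genes by 0.07 and 0.05 in the 2 Batf3 comparisons. In the non-stimulated one, leaving out any control stimulated library or Batf3 stimulated replicate 1 or 2 shifted it by 0.028 to 0.029. So did using only the 6 libraries compared. The libraries left out there are no part of that comparison. The changed calls of Ifi27, Oas3 and Gbp7 in these settings came with this common shift and are not separate checks. Leaving out the same libraries shifted the median by -0.051 to -0.040 for stimulation with the Batf3 vector. For the interaction it shifted by -0.038 to -0.034. The calls of Ifih1 with stimulation, and the lost positive interactions of Gbp2, Herc6, Bst2 and Samd9l in these settings, are not separate checks either. Irf7, Mx1 and Cmpk2 lost negative interaction calls in some of them. Of the 45 members lower with Batf3 in non-stimulated cells 42 were called lower in all 18 alternatives, and in stimulated cells all 38. For the interaction, 11 of 15 positive and 14 of 18 negative calls held in all 17.

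The replicate block left 45 members lower and 2 higher in non-stimulated and 38 lower and 5 higher in stimulated cells and changed no call of a member. Over 18 pairs of libraries with the same number in different groups, the deviations from the group means correlated at -0.15 to 0.07 across 9681 genes, and 3 of the 12 libraries correlated best with their own number. Among the 71 interferon-induced genes outside the list, positive interactions numbered 19, and 12 without control stimulated replicate 1 or Batf3 stimulated replicate 1. Both settings are among those that shifted the median interaction of all tested genes. The higher calls with stimulation and the control vector numbered 3, and 1 with library sizes alone. Low counts limit Ifi44 and Ifnb1, and technical replicates limit every p-value to the spread between libraries.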
